A study of Mus musculus with 4 samples.

Results

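The H2 genes are the mouse major histocompatibility complex (MHC) genes. They were taken as the rows on chromosome 17 whose symbol begins with H2-, which gave 42 of the 22691 genes listed. By name, 31 encode or derive from class I heavy chains, 10 are class II genes, and 1, H2-Ke6, belongs to neither class. Both genotypes had a value for 41 of the 42, and H2-Q5, a class I pseudogene, had none in either. The mark measured was trimethylation of histone H3 at lysine 27 (H3K27me3), by chromatin immunoprecipitation and sequencing (ChIP-seq) in mouse embryonic fibroblasts. The cells came from female C57BL6/J fetuses at stage E13.5 of embryonic development. They were either homozygous for the MD1 allele of Smchd1 (genotype Smchd1 MD1/MD1, here MD1) or wild type (Smchd1 +/+, here WT), and the series' design text calls the mutant cells deficient for SmcHD1. Each genotype contributed 1 ChIP library, made with the monoclonal antibody CMA323, and 1 input library without antibody, so there is no replicate error, no test and no p-value. The labels do not say how many fetuses each library came from.

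Class I molecules, a heavy chain paired with beta-2-microglobulin, present peptides from inside the cell on nearly every nucleated cell type. Class II molecules, pairs of an alpha and a beta chain, present peptides from endocytosed proteins and are known mainly from dendritic cells, macrophages, B cells and thymic epithelium. In fibroblasts, class I genes are known to be active at low levels and to be raised by interferon, whereas class II genes are normally silent until the transactivator CIITA is induced. H3K27me3 is laid down by Polycomb repressive complex 2 and is known from silent genes. SmcHD1 is a chromatin protein known for silencing on the inactive X chromosome and at some autosomal gene clusters.

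Each value is the authors' log2 H3K27me3 enrichment of a whole gene interval on mouse build mm9. What it was divided by is not given, so 0 is a point on their scale and not a known background level. The difference is MD1 minus WT, and a gene was counted as higher or lower when it differed at least 2-fold. The autosomal median was -0.90 in MD1 and -0.78 in WT, and the median autosomal difference was -0.27. Low values were lower still in MD1 (slope of MD1 on WT 1.25). A level-adjusted difference is therefore given as well. It is the difference minus the median difference of 500 autosomal genes of similar mean level and of the same length quartile, and the standard deviation (SD) of those 500 served as the only available yardstick of scatter. The depth of the libraries is unknown. Fibroblast marker genes, with medians of -4.12 in MD1 and -2.90 in WT over 14 genes and none above 0, had little mark, whereas 4 epithelial markers had medians of 1.15 in MD1 and 1.30 in WT. Markers of macrophages and other antigen-presenting cells had medians of -0.25 in MD1 and -0.071 in WT over 9 genes, and 4 endothelial markers 0.084 in MD1 and -0.060 in WT. A value averages all cells of a library, so a mark on some cells and a weaker mark on all of them cannot be told apart. Smchd1 itself, at -3.47 in MD1 and -2.44 in WT, is no check of the allele, since the mark on a gene does not report its product. Smchd1 lies on the same chromosome as the H2 genes (chromosome 17, 71693834 to 71824683).

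H2 genes carried more H3K27me3 than most autosomal genes in both genotypes, and few differed between genotypes. The median enrichment of the 41 genes was 1.29 in MD1 and 1.27 in WT. Of the 41, 30 lay above 0 in MD1 and 32 in WT, where 34.2% of autosomal genes did so in MD1 and 35.6% in WT. In MD1 20 of them, and in WT 19, stood at or above the 90th percentile of autosomal genes, which was 1.43 in MD1 and 1.33 in WT. The levels of the 41 genes followed each other between the genotypes, with Pearson's r = 0.90 and Spearman's rho = 0.92 across genes, against r = 0.95 and rho = 0.96 across all autosomal genes. Within class II rho was 0.67 over 10 genes. Genes are not independent replicates, and rows with overlapping intervals share reads.

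No H2 gene was at least 2-fold lower in MD1, where 20.4% of autosomal genes were, and 3 were at least 2-fold higher, where 1.61% of autosomal genes were. At levels between the quartiles of the H2 genes, large differences were rare among autosomal genes too. Of the 6736 autosomal genes whose mean level fell between the quartiles of the H2 genes, -0.13 and 2.05, 1.38% were lower and 1.75% higher. The median difference of the H2 genes was -0.019 (quartiles -0.32 and 0.40). Centred on the autosomal median it was 0.25, and with the level adjustment it was -0.091, so its direction depended on the scaling. The 3 higher genes were H2-T23, H2-Ke6 and H2-M10.5, and the same 3 passed the limit with the level adjustment, where 3.42% of autosomal genes were lower and 3.17% higher. Of the 3, H2-T23 and H2-Ke6 had mean levels of -0.75 and -2.98, below the lower quartile of -0.13.

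**Figure D1:**
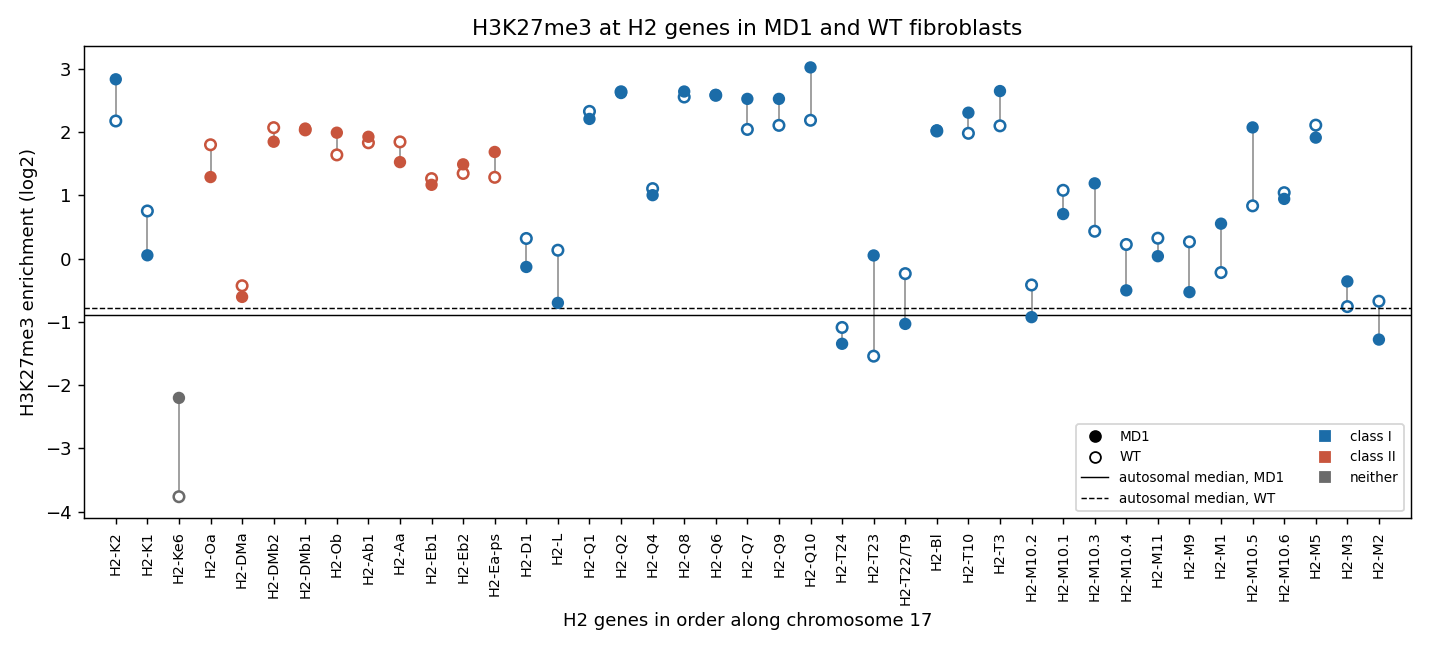
H3K27me3 enrichment (log2, vertical axis) of the 41 H2 genes with values, in their order along chromosome 17, for MD1 (filled) and WT (open), 1 ChIP library per genotype, with horizontal lines at the autosomal medians of -0.90 (MD1) and -0.78 (WT). Class II genes other than H2-DMa form a band between 1.17 and 2.07, whereas class I genes range from -1.54 to 3.02.

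**Figure D2:**
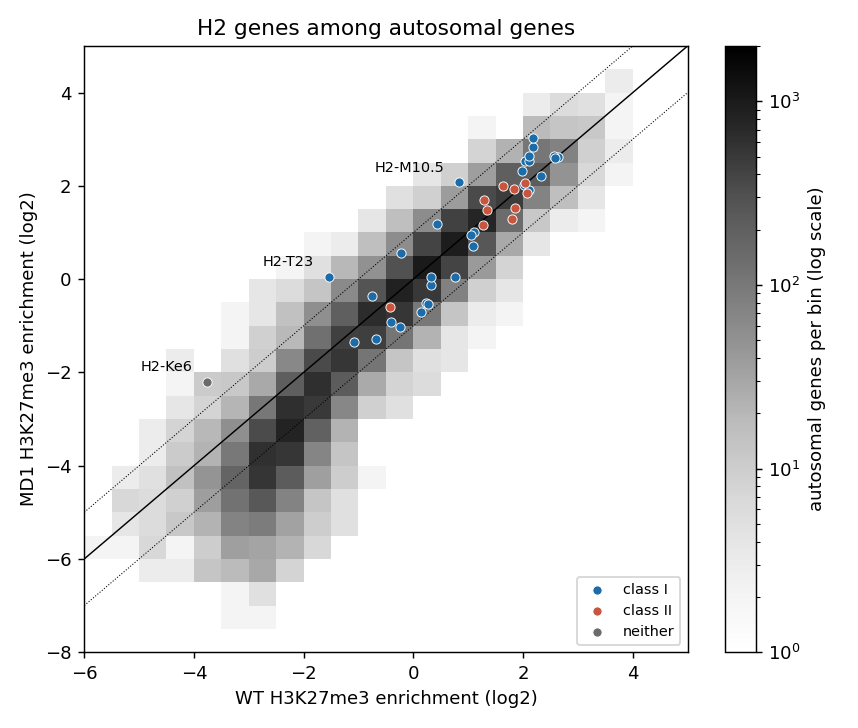
MD1 enrichment against WT enrichment (both log2) of the H2 genes, over grey bins of 0.5 by 0.5 that count 19836 autosomal genes on a log scale. The solid line marks equal values and the dotted lines a 2-fold difference; H2-T23, H2-Ke6 and H2-M10.5 lie above the upper dotted line and no H2 gene lies below the lower one.

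Class I genes spread far more widely in level than class II genes. The 30 class I genes with values had a median of 0.97 in MD1 (from -1.35 to 3.02) and 0.94 in WT (from -1.54 to 2.64). The 10 class II genes had a median of 1.61 in MD1 (from -0.60 to 2.06) and 1.72 in WT (from -0.43 to 2.07). The class I median was thus lower than the class II median by 0.63 in MD1 and by 0.78 in WT. The SD across genes was 1.45 for class I and 0.78 for class II in MD1, and 1.23 for class I and 0.73 for class II in WT. The ranges of the classes overlap in both genotypes.

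The class II genes that encode the antigen-presenting chains were marked at similar levels in both genotypes. H2-Ab1 (chromosome 17, 34400172 to 34406363), the beta chain gene of the I-A molecule, had 1.93 in MD1 and 1.83 in WT. H2-Aa (34419696 to 34424716), its alpha chain partner, had 1.53 in MD1 and 1.85 in WT. Of the genes of the I-E molecule, the beta chain gene H2-Eb1 had 1.17 in MD1 and 1.27 in WT. The related H2-Eb2 had 1.49 in MD1 and 1.35 in WT. H2-Ea-ps, the alpha chain locus, which is a pseudogene in C57BL/6 mice, had 1.69 in MD1 and 1.29 in WT. The differences at these 5 genes ran from -0.32 at H2-Aa to 0.40 at H2-Ea-ps, and each level-adjusted difference was within 1 SD of its neighbours in level. The 5 therefore kept an enrichment above 1 in both libraries.

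The class II genes for the peptide-loading chaperones included the least marked member of the class. H2-DM, which exchanges peptides on class II molecules, is encoded by H2-DMa and the paired beta chain genes H2-DMb1 and H2-DMb2. H2-DMb1 had 2.06 in MD1 and 2.04 in WT, and H2-DMb2 had 1.85 in MD1 and 2.07 in WT. H2-DMa (34259777 to 34276046) had -0.60 in MD1 and -0.43 in WT, at percentile 54.8 of autosomal genes in MD1 and 55.9 in WT. It is the class II gene with the longest interval, 16270 bp, but H2-Eb2, with 15736 bp, had 1.49 in MD1 and 1.35 in WT. H2-O, which inhibits H2-DM, is encoded by H2-Oa and H2-Ob. H2-Ob had 1.99 in MD1 and 1.64 in WT. H2-Oa had 1.29 in MD1 and 1.80 in WT, the largest difference of the class, -0.51, and its interval overlaps that of another listed gene. Across the class 5 differences were positive and 5 negative, with a median of -0.039.

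The promoter of H2-Aa is shown as an example of the class II genes, and those of other members follow where they are described. Promoter sequences are from RefSeq on build GRCm38.p6 and cover the 250 bases before the most upstream listed start, read 5′ to 3′ on the gene's strand. Of the 42 genes, 31 had an entry. In all of them, capitals mark matches on either strand to any of 4 motifs, which do not overlap one another in these windows. The motifs are the enhancer A letters GGGGATTCCCC, the interferon response letters TTTCACTTCT, TGACGC, and the CCAAT box, whose letters are its name. Of 32851 promoter windows of this length, some of them from the same gene, 0.0304% held the first, 0.131% the second, 6.12% the third and 33.8% the last. The H2-Aa window is chr17:34287824-34288073, minus strand.
H2-Aa: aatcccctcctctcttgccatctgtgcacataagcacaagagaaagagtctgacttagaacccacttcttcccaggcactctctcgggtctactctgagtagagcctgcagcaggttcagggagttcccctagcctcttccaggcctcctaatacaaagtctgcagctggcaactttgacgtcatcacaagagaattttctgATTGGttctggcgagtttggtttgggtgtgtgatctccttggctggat
Its capitals are the Y box, the inverted CCAAT box known from class II promoters. Of the 8 class II genes with a promoter entry, 7 held a CCAAT box and H2-DMa held none, and none of the 8 held any of the other 3 motifs.

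Among the class I genes, the classical genes that encode the main peptide-presenting chains stood near or a little above 0. H2-K1 (34132957 to 34137278) had 0.053 in MD1 and 0.75 in WT, a difference of -0.70. These values were at percentile 66.8 of autosomal genes in MD1 and 80.2 in WT. H2-D1 (35400039 to 35404442) had -0.13 in MD1 and 0.32 in WT, a difference of -0.45, at percentile 63.4 in MD1 and 71.4 in WT. Both genes thus stood above most autosomal genes. Their level-adjusted differences, -0.66 and -0.40, were each within 1 SD of their neighbours, 0.68 and 0.69. Both genes were thus lower in the MD1 library, and after level adjustment by less than the scatter of autosomal genes. The unadjusted difference of H2-K1, -0.70, slightly exceeded its neighbour SD of 0.68. H2-L, another classical gene known to be absent from the C57BL/6 haplotype, is listed over part of the H2-D1 interval and therefore shares its reads, with -0.70 in MD1 and 0.13 in WT. The pseudogene H2-K2 (34111604 to 34115736), the nearest H2 neighbour of H2-K1, had 2.84 in MD1 and 2.18 in WT.

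The Q genes, which include those of the Qa-2 antigen, were the most enriched class I family. Their 8 measured rows had a median of 2.56 in MD1 (from 1.0 to 3.02) and 2.26 in WT (from 1.11 to 2.64), and 7 of the 8 stood above the 90th percentile of autosomal genes in both genotypes. H2-Q10 (35607034 to 35611508), which encodes a secreted class I protein of the liver, had the highest MD1 value of any H2 gene, 3.02, against 2.19 in WT. Its difference of 0.84 (level-adjusted 0.75, neighbour SD 0.55) stayed under the 2-fold limit and passed it when centred on the autosomal median, at 1.11. H2-Q2 had 2.62 in MD1 and 2.64 in WT, the highest WT value of any H2 gene. H2-Q4 was the least marked, with 1.0 in MD1 and 1.11 in WT. The rows of H2-Q6 and H2-Q8 overlap almost wholly, as do those of H2-Q7 and H2-Q9, so each pair is a single measurement. H2-Q6 had 2.59 in MD1 and 2.58 in WT, and H2-Q7 had 2.53 in MD1 and 2.04 in WT. Q genes are near-identical in part, and how reads that map to several of them were counted is not given in the sources used here.

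The promoters of 4 class I genes are shown, the classical pair because they hold all 4 motifs, and the others because they hold fewer and, at H2-Q10, lie at a much higher level of the mark: H2-K1 at chr17:34000348-34000597 (minus strand), H2-D1 at chr17:35262844-35263093 (plus strand), H2-M3 at chr17:37269984-37270233 (plus strand) and H2-Q10 at chr17:35469839-35470088 (plus strand).
H2-K1: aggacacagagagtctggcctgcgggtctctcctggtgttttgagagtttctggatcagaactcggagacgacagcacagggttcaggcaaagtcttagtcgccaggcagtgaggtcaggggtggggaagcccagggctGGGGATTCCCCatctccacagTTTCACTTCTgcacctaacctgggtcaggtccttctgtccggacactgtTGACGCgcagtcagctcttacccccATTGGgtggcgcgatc
H2-D1: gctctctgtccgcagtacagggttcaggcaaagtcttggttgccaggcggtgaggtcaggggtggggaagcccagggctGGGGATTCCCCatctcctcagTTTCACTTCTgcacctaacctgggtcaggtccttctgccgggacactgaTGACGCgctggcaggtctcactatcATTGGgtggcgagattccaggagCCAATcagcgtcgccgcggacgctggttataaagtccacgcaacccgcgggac
H2-M3: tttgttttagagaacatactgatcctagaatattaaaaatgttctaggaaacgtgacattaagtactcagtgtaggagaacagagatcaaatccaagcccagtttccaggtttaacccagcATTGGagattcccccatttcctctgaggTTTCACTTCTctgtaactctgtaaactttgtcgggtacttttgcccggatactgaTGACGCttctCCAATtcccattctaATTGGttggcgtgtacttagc
H2-Q10: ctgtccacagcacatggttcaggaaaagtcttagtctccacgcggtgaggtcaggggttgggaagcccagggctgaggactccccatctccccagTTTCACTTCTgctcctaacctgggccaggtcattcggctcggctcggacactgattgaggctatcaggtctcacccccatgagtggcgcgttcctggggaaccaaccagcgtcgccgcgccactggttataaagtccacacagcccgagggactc
H2-K1 and H2-D1 held all 4 motifs, H2-M3 held all but enhancer A, and H2-Q10 held only the interferon response letters. The motif letters other than CCAAT were read from the H2-K1 promoter itself, so its matches to them were fixed in advance. Of the 22 class I genes with values and a promoter entry, H2-K1, H2-D1 and H2-M3 were those with TGACGC. Their levels ran from -0.36 to 0.053 in MD1 and from -0.76 to 0.75 in WT, and those of the other 19 from -1.28 to 3.02 in MD1 and from -1.54 to 2.64 in WT. H2-Q10, H2-T3 and H2-M5 were the class I genes without a CCAAT box in this window, at 1.91 to 3.02 in MD1 and 2.10 to 2.19 in WT. Enhancer A was found also in H2-Q6, at 2.59 in MD1 and 2.58 in WT, and the interferon response letters in H2-Q4, H2-Q6 and H2-Q7 as well. For each motif, the levels of class I genes with and without it overlap in both genotypes. The number of CpG dinucleotides in the window had rank correlations with the level of 0.14 in MD1 and 0.15 in WT over these 22 class I genes, and of 0.21 in MD1 and 0.16 in WT over the 8 class II genes. Over all 31 genes they were -0.11 in MD1 and -0.14 in WT, so the weak relation had the opposite sign in the pool. The class II genes include H2-DMa, the least marked of them, with 27 CpG against a class median of 2. The pool also holds H2-Ke6, of neither class, with 11 CpG and the lowest level in both genotypes. These genes share ancestry and base composition.

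The T genes, nonclassical class I genes, divided into a marked and a little marked group by position. The 3 at the far end of the T region were enriched in both genotypes. H2-T3 (36322516 to 36327096), which encodes the thymus leukaemia antigen of the gut epithelium, had 2.65 in MD1 and 2.10 in WT. H2-T10 had 2.31 in MD1 and 1.98 in WT, and H2-Bl had 2.03 in MD1 and 2.02 in WT. RefSeq lists both H2-T10 and H2-Bl as transcribed pseudogenes. The 3 nearer the Q genes lay around or below 0. H2-T24 had -1.35 in MD1 and -1.09 in WT. The row shared by H2-T9 and H2-T22, the latter encoding a ligand of gamma delta T cell receptors, had -1.03 in MD1 and -0.24 in WT. H2-T23 was the lowest of these 3 in WT and the highest in MD1.

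H2-T23 (36166922 to 36169646) had the largest unadjusted difference of the H2 genes, while H2-Ke6 had the largest level-adjusted one. H2-T23 encodes Qa-1, which presents class I signal peptides to receptors of natural killer cells. Its enrichment was 0.051 in MD1 and -1.54 in WT, a difference of 1.59 or 3.02-fold. With the level adjustment the difference was 1.67, against a neighbour SD of 0.84. In lowest terms, the form in which the deposited ratios can be read back, the ratios were 18 to 17 in MD1 and 1 to 3 in WT, so the reads behind them cannot be counted. Its interval overlaps that of A930015D03Rik, which also covers H2-T24 and had -1.40 in MD1 and -1.35 in WT.

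H2-M10.5 (36909855 to 36913180) had 2.07 in MD1 and 0.83 in WT, a difference of 1.24 or 2.36-fold. With the level adjustment the difference was 1.13, against a neighbour SD of 0.53. It is one of the M10 genes, class I genes known from vomeronasal sensory neurons. The other M10 genes stayed within the 2-fold limit. H2-M10.3 had 1.19 in MD1 and 0.43 in WT, whereas H2-M10.1, H2-M10.2, H2-M10.4 and H2-M10.6 had differences from -0.73 to -0.099. In lowest terms the ratios of H2-M10.5 were 56 to 13 in MD1 and 45 to 26 in WT.

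H2-Ke6 (34162978 to 34165000), between H2-K1 and the class II genes, encodes a hydroxysteroid dehydrogenase and no MHC chain. It had -2.20 in MD1 and -3.76 in WT, the lowest value of any H2 row in each genotype. The difference was 1.56 or 2.95-fold, and 2.64 with the level adjustment against a neighbour SD of 1.10. In lowest terms the ratios were 2 to 9 in MD1 and 1 to 14 in WT, and the reads behind these values cannot be counted either. When 1 was added to each linear ratio, none of these 3 genes passed the 2-fold limit. Their differences were then 0.60 at H2-T23, 0.91 at H2-M10.5 and 0.18 at H2-Ke6. With 1 added, no value below 1 can come out 2-fold higher. The result at H2-Ke6 (linear enrichment 0.22 in MD1) was therefore fixed in advance, and that at H2-T23 (1.04 in MD1) nearly so. The promoters of the 3 genes are shown because they are the members past the limit: H2-T23 at chr17:36032702-36032951 (minus strand), H2-M10.5 at chr17:36772660-36772909 (plus strand) and H2-Ke6 at chr17:34028056-34028305 (minus strand).
H2-T23: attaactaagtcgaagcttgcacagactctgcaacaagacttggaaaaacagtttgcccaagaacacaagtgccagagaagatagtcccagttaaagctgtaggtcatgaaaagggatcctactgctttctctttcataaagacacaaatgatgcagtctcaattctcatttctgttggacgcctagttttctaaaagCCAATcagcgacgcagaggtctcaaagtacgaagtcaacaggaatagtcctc
H2-M10.5: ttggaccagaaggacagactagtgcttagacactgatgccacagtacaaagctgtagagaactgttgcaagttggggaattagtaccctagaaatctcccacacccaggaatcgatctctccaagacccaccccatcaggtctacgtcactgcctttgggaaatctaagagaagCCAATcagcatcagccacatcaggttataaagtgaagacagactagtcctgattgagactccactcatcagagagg
H2-Ke6: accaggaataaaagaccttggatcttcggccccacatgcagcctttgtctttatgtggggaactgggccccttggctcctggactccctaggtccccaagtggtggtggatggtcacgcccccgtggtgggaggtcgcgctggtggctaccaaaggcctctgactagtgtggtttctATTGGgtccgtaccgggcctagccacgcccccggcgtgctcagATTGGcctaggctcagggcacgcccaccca
All 3 held a CCAAT box, which 27 of the 31 H2 promoters held, and none of the other motifs. The H2-T23 window had 5 CpG, that of H2-M10.5 had 2 and that of H2-Ke6 had 11.

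The M genes are the class I family farthest from the class II genes. The 12 M genes had a median of 0.30 in MD1 (from -1.28 to 2.07) and 0.29 in WT (from -0.76 to 2.11). The 6 M genes outside the M10 group had a median of -0.16 in MD1 (from -1.28 to 1.91) and 0.023 in WT (from -0.76 to 2.11). H2-M5 was the most marked of these 6, with 1.91 in MD1 and 2.11 in WT. H2-M3 (37407179 to 37411430), which presents bacterial peptides that begin with formylmethionine, had -0.36 in MD1 and -0.76 in WT. H2-M2, at the end of the region, had -1.28 in MD1 and -0.67 in WT. H2-M1 had 0.55 in MD1 and -0.22 in WT, and H2-M9 had -0.53 in MD1 and 0.27 in WT, so neighbouring M genes differed in opposite directions. Of the 12 differences 4 were positive and 8 negative, and 11 lay within the 2-fold limit.

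**Figure D3:**
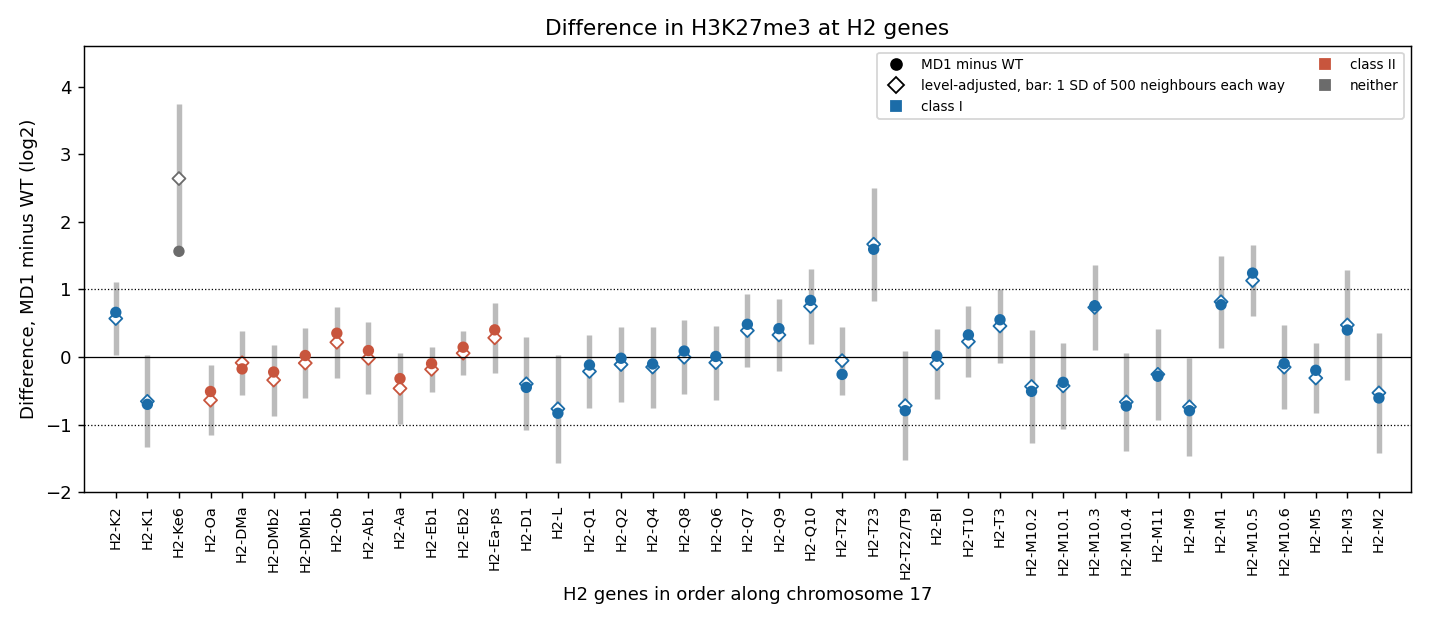
Difference in log2 enrichment, MD1 minus WT, of each H2 gene (circles) and its level-adjusted difference (diamonds), with bars of 1 SD of the 500 neighbouring autosomal genes each way and dotted lines at the 2-fold limits of 1 and -1. H2-T23, H2-Ke6 and H2-M10.5 lie above 1 by both measures, and no H2 gene lies below -1.

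The H2 genes lie among 147 other listed genes in a span of 3.51 Mb (chromosome 17, 34111604 to 37620474), of which 130 had values. These neighbours were less marked than the H2 genes, with medians of -0.71 in MD1 and -0.74 in WT. Of the 130, 32 passed the 2-fold limit downwards in MD1 and 9 upwards, where 20.4% of autosomal genes were lower and 1.61% higher. With the level adjustment 11 were lower and 11 higher, where 3.42% and 3.17% of autosomal genes were. The 4 with the largest differences were Tubb5, a tubulin gene (-6.22 in MD1, -2.82 in WT), the heat shock gene Hspa1b (-4.20 in MD1, -0.96 in WT), Lsm2, of an RNA-processing complex (-6.18 in MD1, -3.01 in WT), and the mRNA decapping gene Dxo (-4.20 in MD1, -1.15 in WT). All 4 had MD1 ratios with a numerator of 1 in lowest terms. Lower genes were mostly those with little mark already. Among genes above 0 in WT, 0 of 32 H2 genes were lower and 1 higher, against 2 lower and 3 higher of 53 neighbours. Among genes below 0 in WT, 0 of 9 H2 genes were lower and 2 higher, against 30 lower and 6 higher of 77 neighbours. With the level adjustment 9 of these 77 neighbours were lower and 9 higher. The genes below 0 also lay at different levels, with WT medians of -0.67 for the 9 H2 genes and -2.17 for the 77 neighbours. The share of autosomal genes past the limit was not computed for these subsets, whose split uses the WT value that also enters the difference. The difference between H2 genes and their neighbours was not tested.

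**Figure D4:**
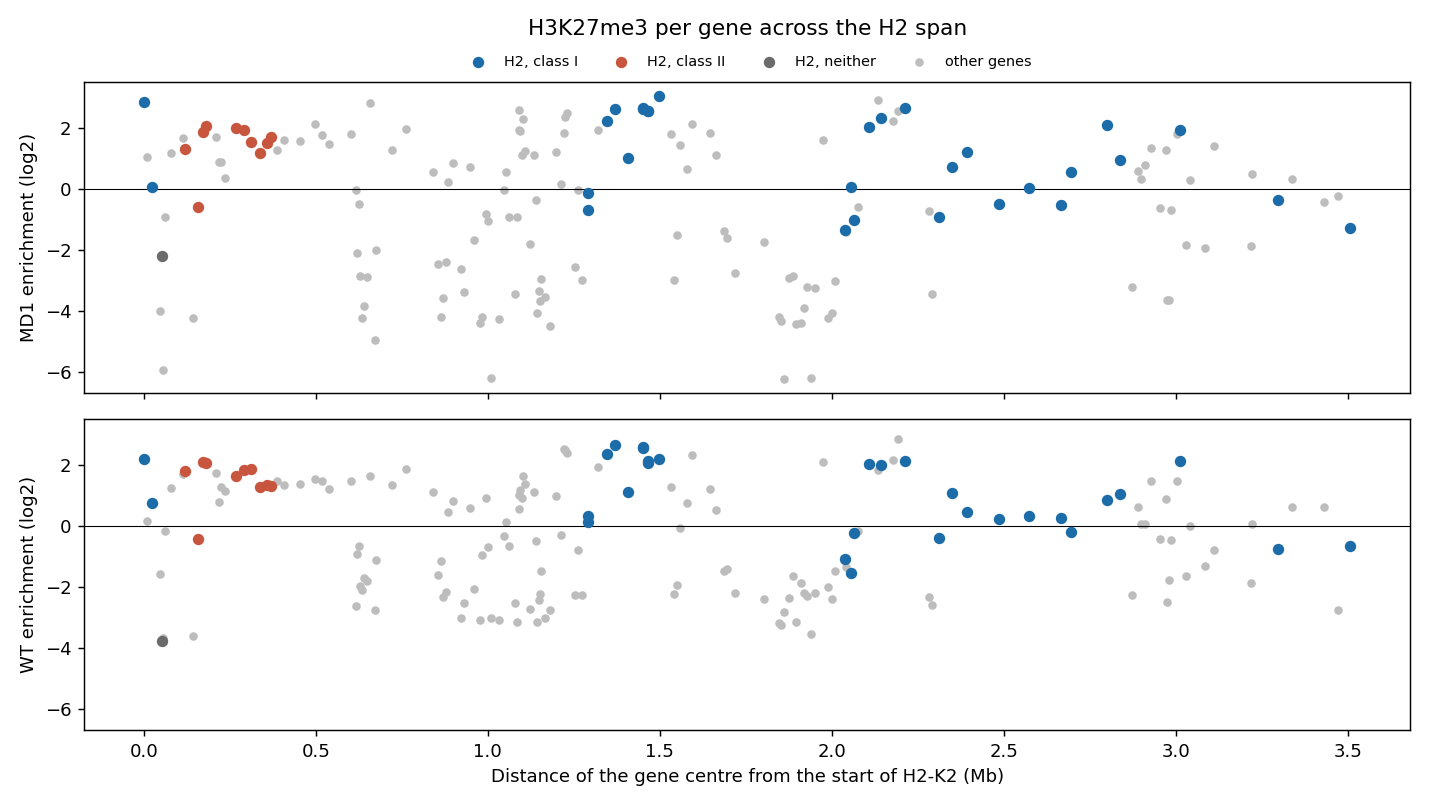
H3K27me3 enrichment (log2) of every gene with values in the H2 span, by distance of the gene's centre from the start of H2-K2 in Mb, in MD1 (upper panel) and WT (lower panel). H2 genes are coloured by class and the 130 other genes are grey; the class II genes lie together on the left, and the marked class I genes form groups separated by stretches where many other genes lie below -2.

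Of a list of 21 partner genes of antigen presentation, 5 lay above 0 in both genotypes. That share is below the 34.2% of autosomal genes above 0 in MD1 and the 35.6% in WT. Of the 5 partners, 4 lie in the class II region. Within the class II region, the proteasome subunit gene Psmb9 had 1.68 in MD1 and 1.71 in WT, and Psmb8 had 0.86 in MD1 and 1.26 in WT. The peptide transporter genes beside them were also marked, Tap1 with 0.87 in MD1 and 0.76 in WT and Tap2 with 0.34 in MD1 and 1.15 in WT. The fifth was the protease gene Ctss on chromosome 3, with 0.61 in MD1 and 0.43 in WT. Tapbp, the tapasin gene, which lies outside the H2 span on the H2-K2 side, had -3.06 in MD1 and -1.52 in WT. These 6 were picked after their values were seen. Of the 21 partners, 8 passed the 2-fold limit downwards in MD1 and 1 upwards, where 20.4% of autosomal genes were lower and 1.61% higher, with a median difference of -0.65 against -0.27 over autosomal genes, and 4 were lower and 1 higher with the level adjustment, where 3.42% and 3.17% of autosomal genes were. B2m (chromosome 2, 121973423 to 121978818), the light chain gene of class I molecules, had the largest difference of the list. It had -5.51 in MD1 and -1.78 in WT, a difference of -3.73 that was -2.35 with the level adjustment, against a neighbour SD of 1.17. Its MD1 ratio in lowest terms was 2 to 89. The next were the lysosomal reductase gene Ifi30 (-5.59 in MD1, -2.11 in WT), the chaperone gene Canx (-5.65 in MD1, -2.94 in WT) and the proteasome activator gene Psme2 (-3.58 in MD1, -1.40 in WT).

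A list of 16 genes held regulators of MHC transcription and proteins of interferon signalling. Of the 16, 4 were at least 2-fold lower, a share near the 20.4% of autosomal genes, and none was higher. None passed the limit in either direction with the level adjustment. The median difference was -0.58, against -0.27 over autosomal genes. The 4 were Rfxap, of the class II promoter complex (-5.10 in MD1, -3.17 in WT), the CCAAT-binding subunit genes Nfya (-3.80 in MD1, -2.11 in WT) and Nfyb (-4.11 in MD1, -2.74 in WT) and Creb1 (-3.98 in MD1, -2.52 in WT). Ciita, the class II transactivator, and Nlrc5, its class I counterpart, which were picked after their values were seen, were the members above 0. Ciita (chromosome 16, 10480165 to 10527733) had 1.22 in MD1 and 1.12 in WT, and Nlrc5 (chromosome 8, 96996663 to 97051172) had 0.76 in MD1 and 0.99 in WT. Gene expression was not measured in this series.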

How the data were processed

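Per the file headers, the authors deposited a table of genes with a log2 H3K27me3 enrichment in WT and in MD1. The build, per the submitters' processing notes, was mm9. The sources used here do not give the aligner, the read counting or what the enrichment was divided by. Nearly every deposited log2 value (99.98% in MD1, 99.99% in WT, relative tolerance 1e-12) could be read back, after subtracting a constant per genotype, as a whole-number ratio with terms up to 20000, known only in lowest terms, so depth is unknown. None of the 1545 rows shorter than 1000 bp had a value. Starts were raised by 1 to count from 1.

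Differences were MD1 minus WT over 20606 genes with both values, 19836 of them autosomal. The 2-fold limit was used without a test, as there was 1 library per kind and genotype. Genes were assigned to class by symbol. All members with values could be named, and from each other list the 4 largest absolute differences. The members and lists were chosen with earlier results of these data known. Ratio recovery and level adjustment were tested on simulated data. The simulated differences had noise of the same SD at every level, unlike these data, so scatter that changes with level was not tested. Python 3.11.15, pandas 2.3.3, NumPy 2.4.6 and SciPy 1.17.1 were used. Alternatives covered pseudocounts, low values, centring, level adjustment, small denominators, overlaps, gene families, limits and means.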

Additional observations from a re-analysis of the deposited data

How the results depend on the processing

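No paired analysis was possible because each genotype had 1 ChIP and 1 input library and no result came from a test. The count of H2 genes at least 2-fold higher was 3. It was 0 with a pseudocount of 1 or with denominators of at least 20 (13 genes left), and 6 when centred on the autosomal median. It was 1 without the H2-Q, H2-T and H2-M families, 7 at a limit of 1.5-fold and 1 at 3-fold. The denominator setting leaves out all 3 genes, and the family setting leaves out H2-T23 and H2-M10.5. The counts under these 2 settings therefore follow from the selection and are no check of the genes left out. The pseudocount of 1 fixed the result at H2-Ke6 in advance. The count of lower genes was 0 except at 1.5-fold, where it was 6. The median differences were -0.019 (H2), -0.059 (class I) and -0.039 (class II) and changed sign with some settings. Without the H2-Q, H2-T and H2-M families that of class I was -0.58. Centred, they were 0.25 (H2), 0.21 (class I) and 0.23 (class II). With denominators of at least 20 they were 0.011 (H2) and 0.095 (class II), without overlapping intervals 0.021 (class II), and as means 0.061 (H2) and 0.042 (class I). The class I median stayed below that of class II in both genotypes in every setting run, by -0.45 to -1.65 in MD1 and -0.56 to -1.18 in WT, and the class means differed by -0.45 in MD1 and -0.52 in WT; the largest MD1 gap, -1.65, was without the H2-Q, H2-T and H2-M families. Keeping 1 row per overlapping pair and leaving out H2-Ke6 were added after the data were seen, and gave counts of 3 and 2 higher genes. The cause of these shifts was not tested. The unknown depth limits the single-gene values. Of 41 H2 genes, 28 had a denominator under 20 in lowest terms in either genotype, which does not give the number of reads.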
